A study of Mus musculus with 12 samples.

Results

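Of the 47642 genes listed for mouse inner medullary collecting duct (mIMCD3) cells, 10 encode actin regulators of the Ena/VASP, WIP, WASP and WAVE families and are described here. They comprise Evl, Enah and Vasp (Ena/VASP), Wipf1, Wipf2 and Wipf3 (WIP), Was and Wasl (WASP), and Wasf1 and Wasf2 (WAVE). Evl and Wipf1 were chosen by their low normalized counts in the mutant cells, so their values against wild-type are given as a description, with no test. The other 8 genes were chosen as relatives of these, and the question was whether any of them rose where Evl or Wipf1 was lost.

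Actin filaments grow at their fast ends and branch from their sides, and these families act on both events. Ena/VASP proteins sit at filament ends, where they recruit profilin-bound actin and delay capping, and they are found at focal adhesions, cell junctions and the tips of protrusions. WASP and WAVE proteins switch on the Arp2/3 complex, which starts a branch on an existing filament, and WIP proteins bind and stabilize WASP proteins. In epithelial cells such as those of the collecting duct, both systems shape junctions, the cell cortex and the leading edge of migrating cells.

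The study compared wild-type mIMCD3 cells (Wt) with 1 Pkd1-/- clone and 1 Pkd2-/- clone, to find transcription that depends on the genes mutated in autosomal dominant polycystic kidney disease. All 3 genotypes share the simian virus SV40 early region, a transgene that immortalized the parental line. In the Pkd1-/- clone, both alleles carry a deletion on chromosome 17, from 24550055 to 24594963 and from 24550106 to 24594903, and in the Pkd2-/- clone 12598 bases are deleted on chromosome 5, from 104478281 to 104490878 (positions as the labels list them). RNA was taken 4 days after full confluency from 4 of the 6 dishes grown per genotype, the 4 with the highest purity ratios, so that replicates are dishes of 1 line, p-values measure the spread between dishes, and effects of the clone and of the genotype cannot be told apart.

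The values are normalized counts, that is, reads counted per gene and divided by a size factor of the library, rounded to whole numbers. They summed to between 25966273 and 28027792 per library, and the Pkd2-/- libraries (27197060 or more) lay above all others. Pkd1 read 682 to 883 in Wt, 30 to 49 in Pkd1-/- and 1057 to 1492 in Pkd2-/- cells, while Pkd2 read 3438 to 4467, 2545 to 2858 and 3855 to 4135. The Pkd2 level does not check the Pkd2 deletion, since the exons outside it are still counted. Of 16 collecting duct markers, 12 exceeded 10 normalized counts in every library, but the water channel Aqp2 and Tfap2b were at 0 in all 12, Aqp3 did not exceed 6 and the vasopressin receptor Avpr2 did not exceed 1. Of 12 markers of blood cells, in which Evl, Wipf1 and Was are known to be high, 5 were at 0 in all libraries and the leukocyte marker Ptprc did not exceed 5. Their summed level, 844 to 954 in Wt, 395 to 597 in Pkd1-/- and 688 to 793 in Pkd2-/- cells, was mostly Csf1r (828 to 941, 381 to 587 and 663 to 774). Other markers moved with the clones too. The collecting duct keratin Krt19 read 4030 to 4850 in Wt, 1278 to 1418 in Pkd1-/- and 1392 to 1456 in Pkd2-/- libraries, and the transcription factor gene Gata3 176 to 248, 42 to 56 and 294 to 430. Of the proximal tubule markers, Lrp2 read 474 to 555, 25 to 63 and 738 to 1217, and of the fibroblast markers, Col3a1 read 3 to 7, 62 to 69 and 0 to 42. The summed levels in Wt, Pkd1-/- and Pkd2-/- libraries were 90510 to 101049, 84319 to 86252 and 97574 to 102641 for 16 collecting duct markers, 480 to 557, 33 to 71 and 744 to 1222 for 5 proximal tubule markers, 32 to 58, 89 to 103 and 15 to 141 for 8 fibroblast markers, and at most 10 in any library for 6 endothelial markers. The part of these differences in the levels of Evl, Wipf1 and their relatives was not tested. In such bulk RNA, fewer cells expressing a gene and less RNA per cell cannot be told apart.

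Evl (ENSMUSG00000021262) encodes a member of the Ena/VASP family and lies on chromosome 12 of GRCm38, from 108554720 to 108688516, on the plus strand. Its normalized counts were 671, 682, 736 and 631 in the 4 Wt libraries, 0, 2, 3 and 1 in the Pkd1-/- libraries, and 0, 1, 0 and 1 in the Pkd2-/- libraries. Transcripts were thus plentiful in Wt cells and at or near 0 in both clones, with no overlap between either clone and Wt. Against a floor of 3 counts per library, the Wt mean of 680 ± 43.3 (SD, n = 4) makes Evl at least 226.7-fold lower in each mutant. The means of 1.5 ± 1.29 in Pkd1-/- and 0.5 ± 0.577 in Pkd2-/- cells (SD, n = 4 each) were both below that floor.

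Because transcripts of Evl were lost in both clones, the sequences before its starts are shown as context. The RefSeq windows of 250 bases before its 2 annotated start sites (GRCm38.p6, plus strand) are given 5′ to 3′, with each CG dinucleotide, the site of DNA methylation, in capitals.
Evl, before the start at 108554720 (chr12:108554470-108554719): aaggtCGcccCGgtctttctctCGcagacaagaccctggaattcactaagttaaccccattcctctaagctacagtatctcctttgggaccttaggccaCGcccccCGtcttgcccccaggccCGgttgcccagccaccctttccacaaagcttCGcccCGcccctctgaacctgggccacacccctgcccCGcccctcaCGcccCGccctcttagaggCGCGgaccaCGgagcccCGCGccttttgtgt
Evl, before the start at 108605766 (chr12:108605516-108605765): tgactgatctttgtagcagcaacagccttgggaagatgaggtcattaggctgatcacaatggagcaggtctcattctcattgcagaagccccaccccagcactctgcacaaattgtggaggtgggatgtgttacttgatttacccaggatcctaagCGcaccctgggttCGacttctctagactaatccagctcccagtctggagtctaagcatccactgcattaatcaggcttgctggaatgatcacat
The first window held 16 CG dinucleotides at a GC content of 64.0%, and the second 2 at 49.2%. CG reads the same on both strands, and 92.1% of 32851 mouse promoter windows of this length held at least 1, with a median of 6. Of all windows, 25.4% held as many as the first or more, and 81.2% as many as the second. DNA methylation was not measured. All 10 genes had a window in this table, and the count was highest for Enah, with 42.

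Wipf1 (ENSMUSG00000075284) encodes the WASP-interacting protein WIP, which shields WASP proteins from degradation and links them to actin. It lies on chromosome 2, from 73429610 to 73529734, on the minus strand. Its normalized counts were 39, 52, 37 and 55 in Wt, 1, 1, 2 and 1 in Pkd1-/-, and 10, 20, 19 and 19 in Pkd2-/- libraries. The 3 genotypes did not overlap: Wipf1 was near 0 in the Pkd1-/- clone and intermediate in the Pkd2-/- clone. The Wt mean was 45.75 ± 9.07 (SD, n = 4), so that the Pkd1-/- clone was lower by at least 15.25-fold. For Pkd2-/- cells the mean of 17 ± 4.69 was 37.2% of Wt, a log2 fold change of -1.40, and at least 5.667-fold higher than in Pkd1-/- cells. Wipf1 was a weakly expressed gene even in Wt cells, whereas Evl was not.

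**Figure D1:**
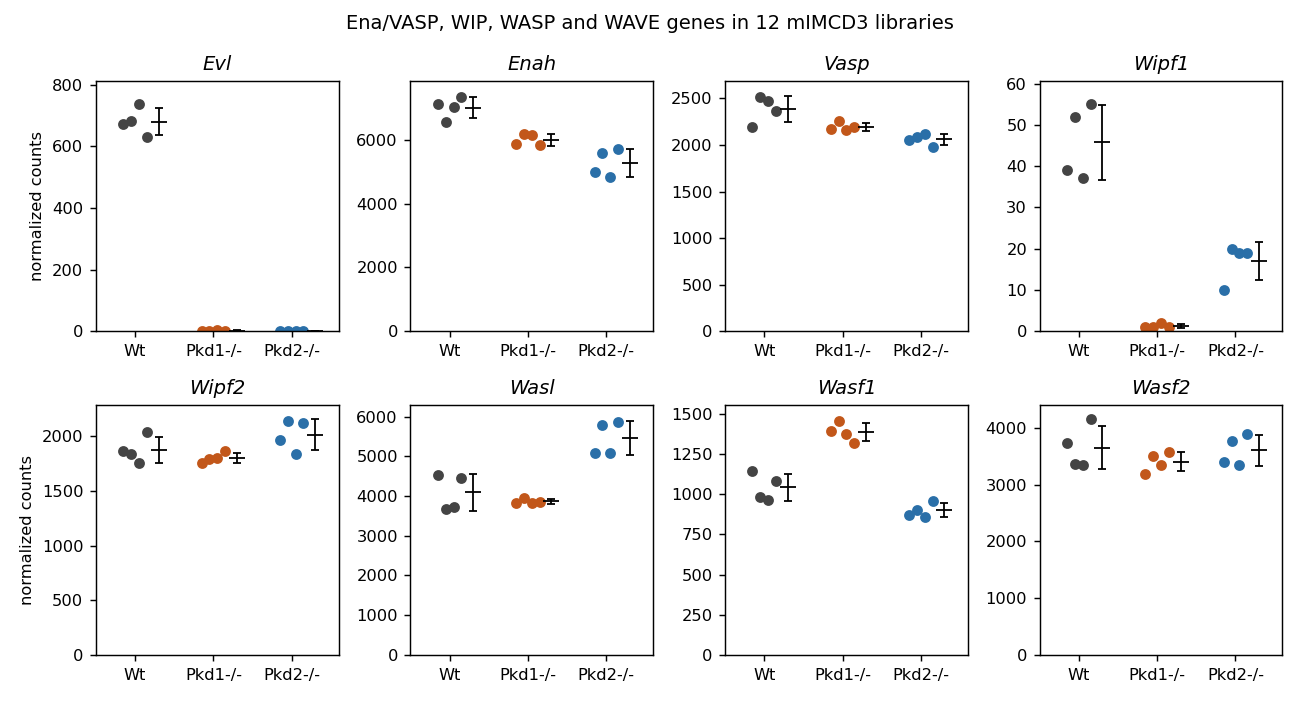
Normalized counts (vertical axes, each from 0) of 8 genes in the 4 libraries of Wt, Pkd1-/- and Pkd2-/- cells; points are libraries, and the bar beside them is the mean with its SD. Evl falls from 631 or more to 3 or less in both clones, while the axes of Enah, Vasp and Wipf2 show no rise of comparable size.

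Neither relative of Evl rose in either clone. Enah and Vasp were both lower in Pkd2-/- cells, and Enah was lower in Pkd1-/- cells as well. Enah (chromosome 1, 181896384 to 182019990, minus strand) encodes Mena, which promotes protrusion and cell migration. It read 7125, 6559, 7027 and 7345 in Wt, 5862, 6190, 6142 and 5824 in Pkd1-/-, and 4980, 5576, 4829 and 5720 in Pkd2-/- libraries. Each clone lay wholly below Wt, with Pkd2-/- lowest. Enah fell to 85.6% of Wt in Pkd1-/- cells (log2 fold change -0.22, SE 0.06, adjusted p = 0.00482, limma) and to 75.2% in Pkd2-/- cells (-0.41, SE 0.06, adjusted p = 6.23e-06, limma). The Pkd2-/- libraries were also below the Pkd1-/- libraries (-0.19, adjusted p = 0.00839, limma). By the exact permutation test (two-sided), each comparison of Enah with Wt gave p = 0.0286, the smallest that 4 libraries against 4 allow.

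Vasp (chromosome 7, 19256929 to 19271817, minus strand) encodes the founding member of the family, a substrate of the cyclic AMP- and cyclic GMP-dependent kinases. Its levels were 2196, 2517, 2474 and 2367 in Wt, 2175, 2256, 2166 and 2189 in Pkd1-/-, and 2058, 2088, 2113 and 1976 in Pkd2-/- libraries. All Pkd2-/- libraries were below Wt, whereas Wt replicate 1 lay within the Pkd1-/- range. Vasp fell to 86.2% of Wt in Pkd2-/- cells (-0.21, SE 0.05, adjusted p = 0.00156, limma). For Pkd1-/- cells the difference of -0.12 did not pass the test (adjusted p = 0.0823, limma), but it did without Wt replicate 1 (-0.16, adjusted p = 0.0188) and once GC content and transcript length were corrected for (-0.14, adjusted p = 0.00864). Over all alternatives of this comparison the adjusted p of Vasp ranged from 0.00751 to 0.216 (limma). The exact permutation test (two-sided) of Vasp against Wt gave p = 0.0571 in Pkd1-/- and 0.0286 in Pkd2-/- cells.

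To add up a family, normalized counts were divided by the length of all exons of each gene. In Wt cells Vasp then made up 62.0% ± 1.71 of the Ena/VASP sum, Enah 22.3% ± 1.59 and Evl 15.7% ± 0.81 (SD, n = 4). The sum was 1471 ± 54.0 per kb in Wt, 1120 ± 21.5 in Pkd1-/- and 1033 ± 17.9 in Pkd2-/- cells (SD, n = 4 each), and neither clone overlapped with Wt. It thereby stood at 76.1% and 70.2% of Wt. Evl was chosen for its low counts in the mutants. Its part of this fall was set by that choice, and the sums were not tested. Of the difference from Wt in Pkd1-/- cells, Evl accounted for -230.8 per kb and Enah with Vasp for -120.4 per kb. The same parts in Pkd2-/- cells were -231.1 and -207.0 per kb. The part of the relatives in Pkd1-/- cells includes Vasp, which did not pass the test there. Dividing by the longest transcript instead left the sums at 75.8% and 69.5% of Wt, but the shares depended on the length used. In Wt cells Vasp then made up 53.5%, Enah 31.0% and Evl 15.5%. The part of Evl became -311.2 per kb in Pkd1-/- and -311.7 per kb in Pkd2-/- cells, and that of Enah with Vasp -176.6 and -303.6 per kb.

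Wipf2 (chromosome 11, 98863638 to 98905040, plus strand), which encodes a broadly expressed WIP relative that also binds the WASP protein of Wasl, carried the WIP family in these cells, with 96.8% ± 0.41 of its summed level per kb in Wt (SD, n = 4). It read 1863, 1839, 1753 and 2039 in Wt, 1757, 1787, 1801 and 1865 in Pkd1-/-, and 1965, 2136, 1832 and 2121 in Pkd2-/- libraries, and both clones overlapped with Wt. The log2 fold changes were -0.05 in Pkd1-/- (95% interval -0.18 to 0.07, adjusted p = 0.558, limma) and 0.10 in Pkd2-/- cells (-0.02 to 0.22, adjusted p = 0.168, limma). Without Pkd2-/- replicate 3 the latter passed (0.15, adjusted p = 0.0472, with a range of 0.0472 to 0.975 over all alternatives, limma). Between the clones Wipf2 differed by 0.16 (adjusted p = 0.0325, limma), with overlapping libraries, and it no longer passed the test in 10 alternatives. The exact permutation test (two-sided) of Wipf2 between the clones gave p = 0.0571. Wipf3 (chromosome 6, 54429603 to 54503768, plus strand), a WIP relative known from testis and brain, read 2 in 2 Wt libraries and 0 in the other 10, and was too low to be tested.

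The WIP sum was 247.5 ± 16.4 per kb in Wt, 230.7 ± 5.82 in Pkd1-/- and 260.4 ± 18.6 in Pkd2-/- cells (SD, n = 4 each). These ranges overlapped. Since Wipf1 gave only 3.12% of the Wt sum, its loss changed the sum by no more than -7.547 per kb. The change of Wipf2 and Wipf3 together was -9.221 per kb in Pkd1-/- and 17.76 per kb in Pkd2-/- cells.

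**Figure D2:**
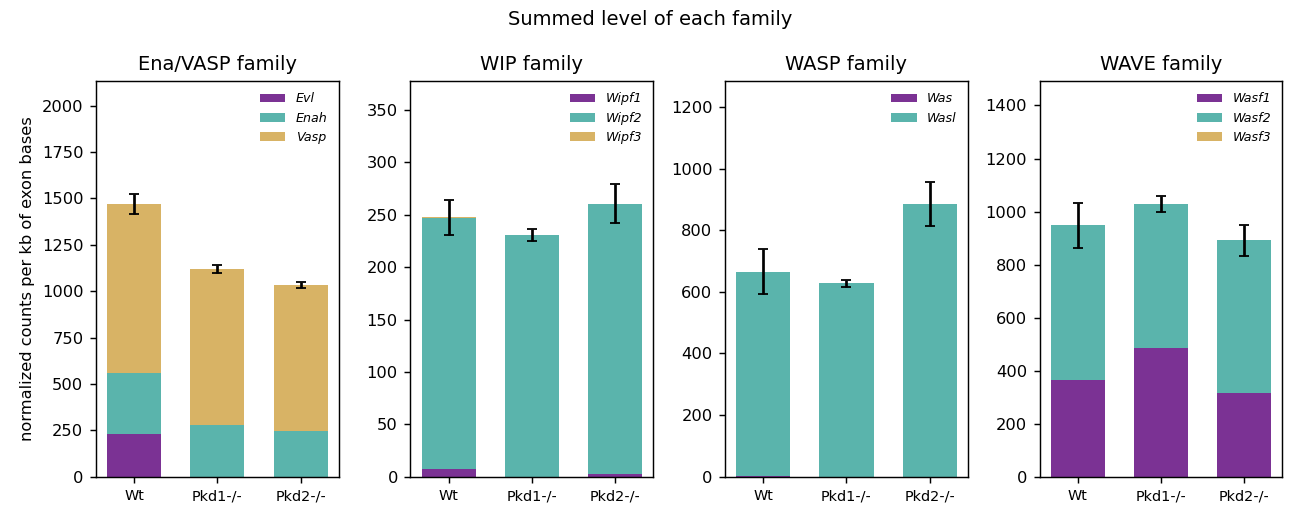
Summed normalized counts per kb of exon bases (vertical axes from 0) for 4 families in Wt, Pkd1-/- and Pkd2-/- cells; stacked colours are the mean levels of the members, Wasf3 (0 in all libraries) included, and error bars the SD of the sum over 4 libraries. The Ena/VASP column, which includes the chosen gene Evl, is 1471 in Wt, 1120 in Pkd1-/- and 1033 in Pkd2-/- cells. The WASP column, nearly all Wasl, is highest in Pkd2-/- cells.

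Among the genes for proteins that WIP binds, Wasl rose in Pkd2-/- cells and did not pass the test in Pkd1-/- cells. Wipf1 was partly lost in the former and near 0 in the latter, and a link between Wasl and Wipf1 was not tested. Wasl (chromosome 6, 24613805 to 24665009, minus strand) encodes N-WASP, the broadly expressed WASP protein that Cdc42 activates. It read 4534, 3668, 3726 and 4456 in Wt, 3828, 3959, 3818 and 3852 in Pkd1-/-, and 5090, 5798, 5078 and 5855 in Pkd2-/- libraries. Every Pkd2-/- library exceeded every other library, and the Pkd1-/- libraries lay within the Wt range. Wasl reached 133.2% of Wt in Pkd2-/- cells (log2 fold change 0.42, SE 0.07, adjusted p = 6.37e-05, limma), and it was 0.49 above Pkd1-/- cells (adjusted p = 7.43e-06, limma). Its log2 fold change in Pkd1-/- cells was -0.08 (95% interval -0.22 to 0.07, adjusted p = 0.464, limma). The exact permutation test (two-sided) of Wasl in Pkd2-/- against Wt gave its smallest p, 0.0286.

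The spread of Wasl within a genotype was not even. Its 2 highest Wt libraries, replicates 1 and 4, were also the 2 with the largest summed counts (26367732 and 26859930), and its 2 highest Pkd2-/- libraries, replicates 2 and 4, had the largest sums of that clone (27808253 and 28027792). Enah and Wasf2 were highest in the same 2 libraries of each of these genotypes. The part of the library in these levels was not tested. Rescaling all libraries to the same upper quartile left Wasl, Enah and Wasf1 on the same side of the threshold in both clones.

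Was (chromosome X, 8081453 to 8090498, minus strand), which encodes the WASP protein of blood cells, was near 0 throughout. It read 0, 6, 5 and 3 in Wt, 2, 3, 3 and 1 in Pkd1-/-, and 0, 3, 0 and 2 in Pkd2-/- libraries. These ranges overlapped, neither clone passed the test (adjusted p = 0.866 and 0.254, limma), and a difference was not detectable at this depth. Without Wt replicate 1, which read 0, the Pkd2-/- difference passed (-1.57, adjusted p = 0.0373, with a range of 0.0373 to 0.515 over all alternatives, limma).

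Wasf1 moved in opposite directions in the 2 clones. The gene (chromosome 10, 40883475 to 40938570, plus strand) encodes WAVE1, which acts in the complex that couples Rac to Arp2/3 and is known for its roles in neurons and at mitochondria. It read 1142, 981, 966 and 1081 in Wt, 1392, 1452, 1375 and 1315 in Pkd1-/-, and 873, 904, 860 and 958 in Pkd2-/- libraries. The Pkd1-/- libraries lay above and the Pkd2-/- libraries below all Wt libraries. Wasf1 rose to 132.7% of Wt in Pkd1-/- cells (0.41, SE 0.06, adjusted p = 4.70e-05, limma) and fell to 86.2% in Pkd2-/- cells (-0.21, SE 0.06, adjusted p = 0.00941, limma). The difference between the clones was -0.62 (SE 0.06, adjusted p = 1.09e-07, limma). The exact permutation test (two-sided) of Wasf1 in each clone against Wt gave p = 0.0286.

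Wasf2 (chromosome 4, 133130505 to 133199756, plus strand) encodes WAVE2, the broadly expressed member that builds lamellipodia. It ranged from 3347 to 4153 in Wt, from 3192 to 3570 in Pkd1-/- and from 3355 to 3900 in Pkd2-/- libraries, and the genotypes overlapped. Its log2 fold changes were -0.10 in Pkd1-/- (95% interval -0.24 to 0.05, adjusted p = 0.344, limma) and -0.01 in Pkd2-/- cells (-0.16 to 0.13, adjusted p = 0.891, limma). Wasf1 made up 38.6% ± 1.60 of the WAVE sum per kb in Wt, 47.1% ± 1.76 in Pkd1-/- and 35.4% ± 0.78 in Pkd2-/- cells (SD, n = 4 each). The sum itself overlapped with Wt in both clones, at 948.6 ± 84.3, 1029 ± 30.6 and 891.3 ± 58.0 per kb.

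**Figure D3:**
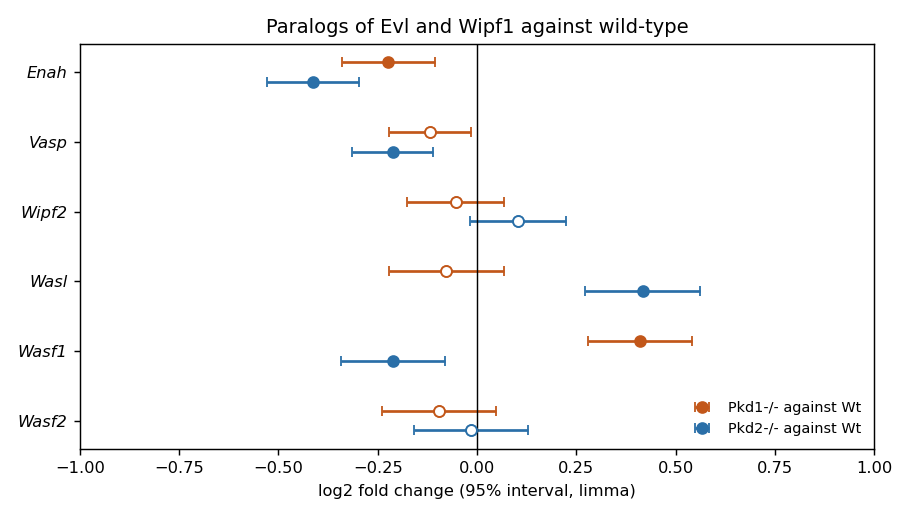
Log2 fold changes against Wt (horizontal axis) of 6 relatives of Evl and Wipf1, with 95% intervals from limma; filled points passed the test at an adjusted p under 0.05 and open points did not. Wasf1 in Pkd1-/- cells (0.41) and Wasl in Pkd2-/- cells (0.42) are the filled points above 0.

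Of the 8 relatives, 7 were expressed enough to be tested. In Pkd1-/- cells 1 of them rose (Wasf1) and 1 fell (Enah), while of all 18552 genes tested 13.6% rose and 13.5% fell (27.1% in all). In Pkd2-/- cells 1 rose (Wasl) and 3 fell (Enah, Vasp and Wasf1), against 20.0% and 22.3% of all genes tested (42.3% in all). Between the clones 2 were higher in Pkd2-/- (Wasl and Wipf2) and 2 lower (Enah and Wasf1), against 21.9% and 24.3% (46.3% in all). By non-overlap of the libraries, 1 of the 7 was higher and 1 lower in Pkd1-/- cells than in Wt, against 13.5% and 13.6% of all genes tested, and 1 was higher and 3 lower in Pkd2-/- cells, against 17.4% and 19.8%. Between the clones 1 was higher and 3 were lower in Pkd2-/- cells, against 19.8% and 22.0%. With 7 genes, counts of 1 to 3 are not read as a result about the family. The median log2 fold change of the 7 was -0.10, -0.21 and -0.09 in these comparisons, and that of all genes tested 0.01, -0.01 and -0.01. None of the 7 also reached a log2 fold change of 1, which 2.96% of all genes did upward and 3.28% downward in Pkd1-/- cells, 3.24% and 6.38% in Pkd2-/- cells, and 4.53% and 7.23% between the clones. The comparisons with Wt share the Wt libraries and are not independent of each other.

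Per kb of exon bases, the order of the levels in Wt cells was Vasp (912.7), Wasl (664.4), Wasf2 (583.3), Wasf1 (365.3), Enah (327.0), Wipf2 (239.6), Evl (231.3), Wipf1 (7.76), Was (1.47) and Wipf3 (0.14). Neighbours in this order overlapped between libraries for Wasl and Wasf2, for Wasf1 and Enah, for Wipf2 and Evl, and for Was and Wipf3. Evl and Wipf2 thus had overlapping levels in Wt cells, with Enah above both. By the longest transcript Enah stood above Wasf1. The first 6 places in Pkd1-/- cells were held by the same genes without Evl, Vasp (839.3) leading. Among Pkd2-/- libraries Wasl (884.9) came first and Vasp (786.7) second, with no overlap.

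The WAVE complex holds WAVE proteins inactive until Rac binds. Of 11 genes for its subunits, 7 were tested, with median log2 fold changes of 0.03 in Pkd1-/- and -0.11 in Pkd2-/- cells (0.01 and -0.01 for all genes tested). Only Wasf1 passed the test in Pkd1-/- cells. Pkd2-/- cells differed in 5 of them: 2 rose, Nckap1 (0.48, adjusted p = 1.20e-07, limma) and Abi1 (0.39, adjusted p = 5.56e-06, limma), and 3 fell, Wasf1, Cyfip1 (-0.21) and Brk1 (-0.36). Cyfip1 is the subunit that binds Rac, Nckap1 its partner, and Abi1 and Brk1 belong to the part that holds the WAVE protein. For this and the lists and neighbours that follow, the shares of all genes tested to set beside the counts are 13.6% that rose and 13.5% that fell in Pkd1-/- cells, and 20.0% and 22.3% in Pkd2-/- cells. List members without a log2 fold change of 1 in a clone, and Avil, were named after their values were seen.

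All 10 genes of the Arp2/3 complex, the nucleator that WASP and WAVE proteins activate, were tested, with medians of 0.09 and -0.06 (0.07 and -0.06 with Actr3b, near 0, at its bound). Of these, 3 rose in Pkd1-/- cells, Arpc1b (0.76), Arpc1a (0.48) and Arpc5l (0.18), and 2 fell, Arpc3 (-0.32) and Actr3 (-0.15). For Pkd2-/- cells 1 rose, Arpc5l (0.19), and 4 fell, Arpc3 (-0.35), Arpc1a (-0.33), Arpc1b (-0.22) and Arpc5 (-0.19). The alternative subunits Arpc1a and Arpc1b moved the same way as Wasf1 in each clone: Arpc1b read 3551 to 4380 in Wt, 6622 to 6843 in Pkd1-/- and 3153 to 3715 in Pkd2-/- libraries. None of the 8 tested genes for other activators of Arp2/3 passed in Pkd1-/- cells. Jmy (0.55) and Whamm (0.42) rose and cortactin, Cttn (-0.12), fell in Pkd2-/- cells, and the medians of this list were 0.01 and -0.00304. Of 9 tested inhibitors and coronins (medians 0.14 and 0.04), Coro1c and Arpin rose and Gmfb fell in Pkd1-/- cells, and Arpin and Gmfg rose in Pkd2-/- cells. Gmfg, which takes Arp2/3 branches apart, rose there from 3.75 ± 1.89 to 14.25 ± 2.22 normalized counts (SD, n = 4 each).

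Upstream of WASP and WAVE, 19 GTPases, adaptors and kinases were tested, of which 5 rose and 4 fell in Pkd1-/- cells, and 8 rose and 7 fell in Pkd2-/- cells (medians 0.01 and -0.05). In all, 27.1% and 42.3% of all genes tested passed in these comparisons. Those that fell in Pkd1-/- cells were Rhoq, Fnbp1l, Trip10 and Src. Those that rose were Rac3, Baiap2l1, Rhou, Baiap2 and Rac1. Rac3, a GTPase that switches on the WAVE complex, rose from 118 to 321.5 normalized counts (log2 fold change 1.44, adjusted p = 9.29e-09, limma) in Pkd1-/- cells. Baiap2, which encodes the membrane-bending adaptor IRSp53 that binds both WAVE2 and Mena, rose from 1098 to 2310 (1.08, adjusted p = 2.04e-10, limma) in Pkd2-/- cells.

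Of 17 genes on a list of ligands and partners of Ena/VASP proteins, 14 were tested. Binding was not measured here, and none is stated for Pcdh10, which is counted because it is on the list. Of these, 5 rose and 3 fell in Pkd1-/- cells (13.6% and 13.5% of all genes tested), and 0 rose and 10 fell in Pkd2-/- cells (20.0% and 22.3%). The median log2 fold changes were 0.10 and -0.35, and 0.01 and -0.19 with genes at or below the floor set at their bound. Called at both thresholds were 4 higher in Pkd1-/- and 6 lower in Pkd2-/- cells, against 2.96% and 6.38% of all genes tested. In 3 of the 6, Robo1, Robo2 and Sema6a, the Wt libraries read 9 or less. Against the floor of 3 counts per library, Robo2 was only at least 1.083-fold lower in Pkd2-/- cells. The Wt mean of Sema6a, 2.25, lay below that floor, so its fall there has no bound. Those that rose in Pkd1-/- cells were Robo1, Robo2, Sema6a, Pcdh10 and Prkaca, and those that fell were Zyx, Vcl and Pfn2. Pcdh10, a protocadherin, read 69 to 87 in Wt, 3023 to 3415 in Pkd1-/- and 4 to 11 in Pkd2-/- libraries, log2 fold changes of 5.39 (adjusted p = 1.42e-12, limma) and -3.26 (adjusted p = 6.56e-10, limma). Robo1, a Slit receptor whose cytoplasmic part binds Ena proteins, read 7 to 9 in Wt, 502 to 588 in Pkd1-/- and at most 1 in Pkd2-/- libraries, at least 2.75-fold below Wt. Its relative Robo2 read 2 to 5, 266 to 284 and 0. These receptors were thus already low in Wt, raised in the Pkd1-/- clone and at or near 0 in the Pkd2-/- clone. A link of their levels to Evl was not tested. Sema6a, a transmembrane semaphorin that binds Evl, read 0 to 4 in Wt, 18 to 37 in Pkd1-/- and 0 in all Pkd2-/- libraries.

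Pfn2 and Palld, which act inside the cell, were called lower in Pkd2-/- cells. Zyx, Tes, Pfn1 and Prkaca fell there as well, by less. Pfn2 encodes a profilin, the actin-binding protein that Ena/VASP proteins recruit, and read 6586 to 7031 in Wt, 3620 to 4108 in Pkd1-/- and 1940 to 2097 in Pkd2-/- libraries. The 3 genotypes did not overlap, with log2 fold changes of -0.84 (adjusted p = 1.55e-10, limma) and -1.75 (adjusted p = 1.86e-15, limma) against Wt. Pfn1, the other profilin gene on the list, had a higher Wt mean, 21320 against 6833 for Pfn2. Pfn1 did not pass the test in Pkd1-/- cells (0.01, adjusted p = 0.927, limma) and fell in Pkd2-/- cells (-0.38, adjusted p = 5.59e-05, limma). Palld encodes palladin, a stress fibre protein that binds VASP, and read 594 to 617 in Wt, 501 to 591 in Pkd1-/- and 106 to 165 in Pkd2-/- libraries. It fell in Pkd2-/- cells (-2.25, adjusted p = 4.69e-12, limma) and did not pass the test in Pkd1-/- cells (-0.21, adjusted p = 0.173, limma).

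The EVH1 domain, by which Ena/VASP proteins bind proline-rich ligands, is also found in Homer and Spred proteins, and all 6 of their genes were tested (medians 0.36 and -0.07). In Pkd1-/- cells 4 rose (Homer2, Spred2, Spred1 and Homer1) and 0 fell. Spred2 and Spred1 also rose in Pkd2-/- cells, where Homer2 and Homer3 fell. Homer2, a scaffold of calcium signalling, read 20 to 33 in Wt, 697 to 817 in Pkd1-/- and 10 to 21 in Pkd2-/- libraries, log2 fold changes of 4.84 (adjusted p = 2.79e-12, limma) and -0.60 (adjusted p = 0.0268, limma).

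**Figure D4:**
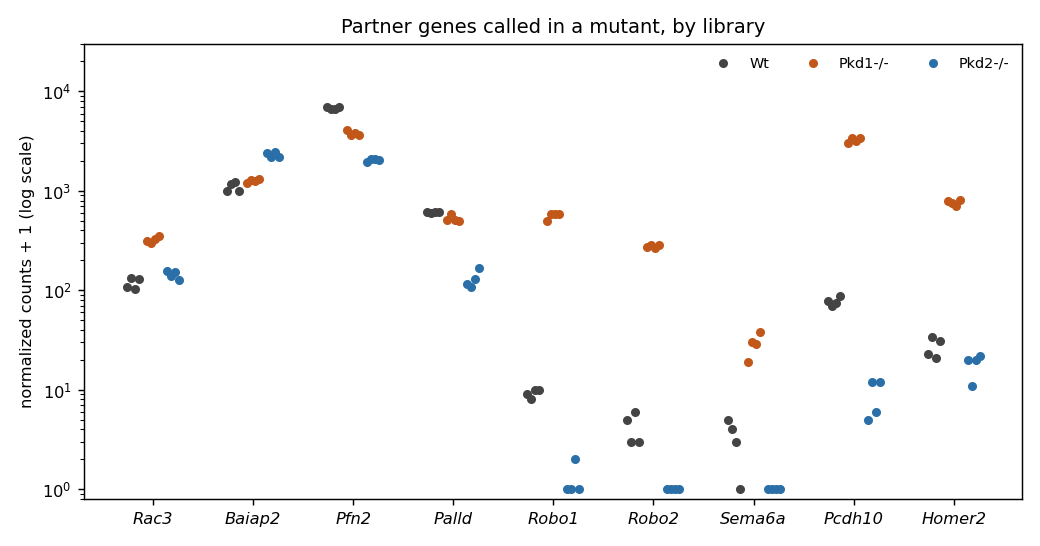
Normalized counts + 1 (log scale) of the named upstream, partner and EVH1 genes in each library, Wt in grey, Pkd1-/- in orange and Pkd2-/- in blue. Pcdh10, Robo1, Robo2, Sema6a and Homer2 are highest in all 4 Pkd1-/- libraries, and Pfn2 falls from 6586 or more in Wt to 2097 or less in Pkd2-/- cells.

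Nucleators that work without Arp2/3 moved in both directions, with more that rose than fell in each clone. Of 17 formins and other nucleators tested, 7 rose and 2 fell (Fhod3 and Cobll1) in Pkd1-/- cells, and 8 rose and 3 fell (Daam2, Fhod1 and Spire1) in Pkd2-/- cells (medians 0.22 and 0.24), where 13.6% and 13.5%, and 20.0% and 22.3%, of all genes tested did. The formin Daam2 rose from 7 to 14 in Wt to 43 to 56 in Pkd1-/- libraries (2.25, adjusted p = 1.70e-05, limma) and fell to 2 to 6 in Pkd2-/- libraries (-1.13, adjusted p = 0.00603, limma). Cobll1, a relative of the nucleator cordon-bleu, read 1533 to 1716 in Wt, 1246 to 1304 in Pkd1-/- and 4292 to 5268 in Pkd2-/- libraries. The nucleator Spire1 fell from 549 to 268 in Pkd2-/- cells (-1.04, adjusted p = 2.51e-08, limma). Its relative Spire2 rose there from 271.2 to 473 (0.80, adjusted p = 6.57e-07, limma), and also rose in Pkd1-/- cells (0.26, adjusted p = 0.0345, limma). Of 18 genes for capping and severing proteins and actin itself, 5 rose and 5 fell in Pkd1-/- cells, and 3 rose (Avil, Scin and Cfl1) and 6 fell in Pkd2-/- cells (medians -0.02 and -0.06). Only Avil passed with a log2 fold change above 1 (1.37), at 7.25 normalized counts in Pkd2-/- against 2.75 in Wt cells.

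Genes near Evl were examined for a shared change. Of the 10 tested neighbours, 5 on each side within 375.4 kb, 3 rose in Pkd1-/- and in Pkd2-/- cells (Ccdc85c, Yy1 and Wars, log2 fold changes of 0.50 or less), and Slc25a47 fell in Pkd2-/- cells (-0.55). Of all genes tested, 13.6% and 20.0% rose. The remaining neighbour that passed was Degs2, a ceramide-forming desaturase gene on the opposite strand (108678711 to 108702315), whose span overlaps that of Evl by 9806 bases. Degs2 read 46, 34, 23 and 22 in Wt, 0, 0, 1 and 0 in Pkd1-/-, and 0 in all Pkd2-/- libraries, at least 10.42-fold lower in both clones. It was thus low in the same libraries as Evl. The genes share 278 exon bases, 9.46% of those of Evl and 10.8% of those of Degs2, and since no source used here states whether strand was used in counting, reads from these bases cannot be told apart.

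Near Wipf1, 10 tested neighbours lay within 363.3 kb. Scrn3 rose (0.22) and none fell in Pkd1-/- cells. Cir1 (0.57), Scrn3 (0.33) and Atf2 (0.27) rose and Chn1 fell in Pkd2-/- cells. Chn1, which encodes a Rac-GTPase activating protein, read 370 to 408 in Wt, 280 to 345 in Pkd1-/- and 81 to 99 in Pkd2-/- libraries, a log2 fold change of -2.04 in Pkd2-/- cells (adjusted p = 3.73e-12, limma). In Pkd1-/- cells the difference of Chn1 was -0.25 (adjusted p = 0.061, limma).

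**Figure D5:**
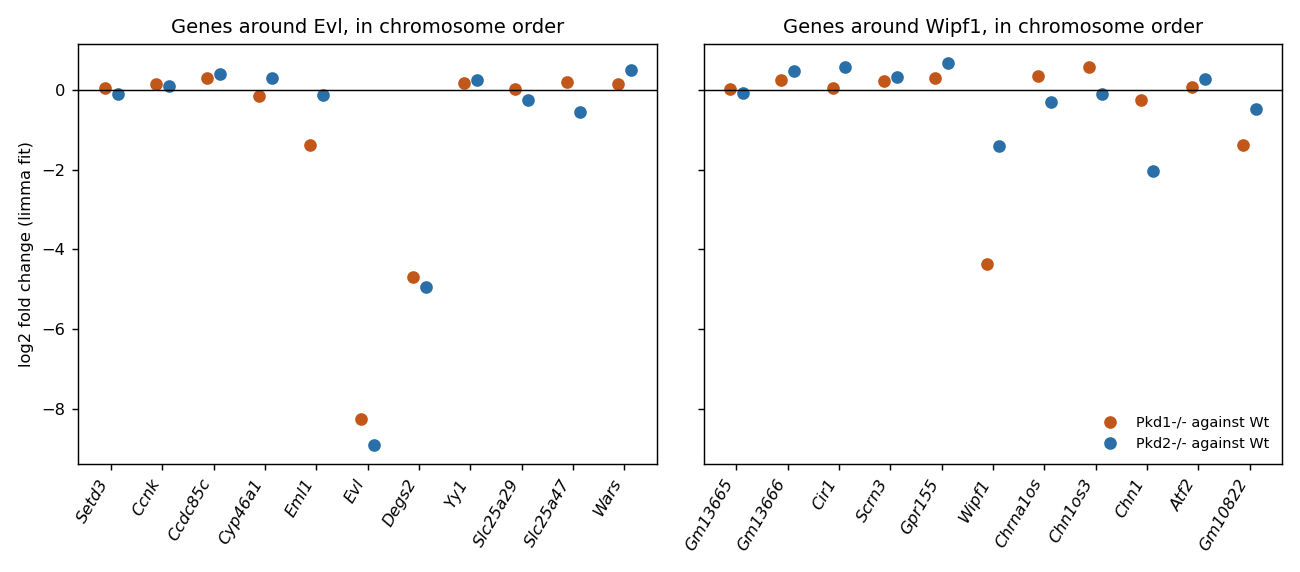
Fitted log2 fold changes against Wt (vertical axis) of Evl, Wipf1 and the 5 nearest tested genes on each side, placed in chromosome order at equal spacing; values of genes near 0 counts depend on the added count of 1. Degs2 lies far below 0 beside Evl in both clones, and Chn1 near Wipf1 lies at -2.04 in Pkd2-/- cells.

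Genes with the most similar pattern were found by the root mean square difference, over 12 libraries, of log2 values set to 0 at the Wt mean. Only genes above a minimum mean in Wt were compared, which Degs2 (31.25) did not reach. For genes near 0 in a clone, this difference depends on their Wt level and on the added count of 1. Of 11379 genes, those closest to Evl were Hs6st2 (0.61), Clip3 (1.25) and St6gal1 (1.58). Hs6st2, a heparan sulfate sulfotransferase gene, read 442 to 452 in Wt and 0 in all 8 mutant libraries. Clip3 read 1336 to 1616, 14 to 23 and 1 to 5 in Wt, Pkd1-/- and Pkd2-/- libraries. Of 11380 genes, those closest to Wipf1 were H2afy2 (0.41), Jazf1 (0.53) and Cyp1b1 (0.58). H2afy2, which encodes a macroH2A histone variant, had means of 1402 ± 32.6, 82.5 ± 10.3 and 538.2 ± 51.8 in Wt, Pkd1-/- and Pkd2-/- cells (SD, n = 4 each), so that it was near 0 in no genotype and shared the intermediate level of Wipf1 in the Pkd2-/- clone.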

How the data were processed

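Per the study's methods, reads were trimmed with Trim Galore, aligned to mm10 (GRCm38) with HISAT2 and counted per gene with HTSeq. The annotation and strand setting of the counting are not given in the sources used here. The deposited values are a score: the authors divided the counts by DESeq2 size factors and rounded them to whole numbers, so they are not read counts, and the depth in reads is unknown. Floors of 3 counts per library are in normalized counts and cover counting error only. All 12 sample columns were used (0 unused), and no 2 libraries were identical.

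Symbols, positions and lengths came from GENCODE M21, which held 47223 of 47642 gene identifiers (419 not matched). Log2(normalized count + 1) was fitted with limma 3.58.1 (lmFit and eBayes with a variance trend, R 4.3.3) in 1 model of 12 libraries, over the 18552 genes whose mean reached 1. Two-sided p-values were adjusted per comparison over all genes tested (Benjamini-Hochberg). A gene passed at an adjusted p under 0.05 ("rose", "fell") and was called with a log2 fold change of at least 1 as well. The fit was tested on simulated data. Exact permutation tests compared 4 libraries with 4 (scipy 1.17.1, Python 3.11.15). Fold changes on this scale understate changes of low genes.

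The 10 genes and the lists of partners were chosen with earlier results of these data known. By rule, list members are named when called in a clone with a mean of at least 10 in a genotype, at most 6 a list, together with neighbours that passed and the 3 genes most like Evl or Wipf1. Other list members are named to spell out counts or as relatives of a named gene (Pfn1 and Spire2), after their values were seen. Alternatives were pseudocounts of 0.5 and 5, no filter, a minimum mean of 10, a replicate block, a model of the 2 genotypes compared, a same upper quartile, quantile normalization, no variance trend, leaving out each library, the longest transcript as length and, chosen after seeing the data, a regression on GC content and transcript length.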

Additional observations from a re-analysis of the deposited data

Results flagged for a closer look

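Wipf1 stood apart in 1 library of each clone. In Pkd2-/- replicate 1 it read 10 normalized counts against 19 to 20 in the other 3 libraries, and this gap was 0.9 of the range of the group. In Pkd1-/- replicate 3 it read 2 against 1 in each of the others, a gap of 1.0 of the range that amounts to 1 count. Such a gap was looked for in 28 groups of 4 libraries, and chance gives it in about 5% of groups whose values are not limited by rounding. The Pkd1-/- values of 1 and 2 are so limited, and this share does not apply to them. Without Pkd2-/- replicate 1, or any other single library, the log2 fold change of Wipf1 in Pkd2-/- cells stayed between -1.495 and -1.181.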

How the results depend on the processing

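Of 618 recomputed values of single genes, 593 kept their direction and side of the threshold, 9 gained and 10 lost the call, and 6 changed sign. The 618 values include those of Evl and Wipf1, which were chosen by their low counts in the mutant cells. Against Wt, every value of Evl and Wipf1 was among the 593. This was set by that choice and does not count as stability. Enah and Wasf1 in both clones, and Vasp and Wasl in Pkd2-/- cells, passed with the same sign in every alternative run. The genes called numbered 1158 in Pkd1-/- and 1785 in Pkd2-/- cells against Wt, and 2182 between the clones. A minimum mean of 10 left 739, 1202 and 1458 in these comparisons, and a pseudocount of 5 left 859, 1274 and 1569. The number called thus depended on how low counts were handled. Quantile normalization moved the share of lower genes from 66.3% to 55.4% in Pkd2-/- cells and from 61.5% to 50.5% between the clones.

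The relatives that fell in Pkd1-/- cells numbered 1 to 2 when 1 library was left out, 2 with the correction for GC content and transcript length (Vasp added) and 3 with that correction and a replicate block (Wasf2 added). Those that rose in Pkd2-/- cells numbered 1 to 2 when 1 library was left out, and those higher in Pkd2-/- than in Pkd1-/- cells 1 to 2. The latter were 1 (Wasl, without Wipf2) with the same upper quartile, quantile normalization, no variance trend and the correction with or without the block. Wipf2 was also lost without Pkd1-/- replicate 1, 2 or 3 or Pkd2-/- replicate 2 or 4. Was in Pkd1-/- cells ranged from -0.82 to 0.12 without single libraries, changing sign without Wt replicate 2 (0.12) or 3 (0.04) or Pkd1-/- replicate 4 (0.01). Wasf2 in Pkd2-/- cells ranged from -0.054 to 0.049, changing sign without Wt replicate 4 (0.049) or Pkd2-/- replicate 1 (0.01) or 3 (0.02). These causes were not tested.

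By the longest transcript, the Ena/VASP sums were 2015, 1527 and 1400 per kb and the WIP sums 277.1, 257.4 and 290.8 per kb in Wt, Pkd1-/- and Pkd2-/- cells, by construction of the length. With the same upper quartile the Ena/VASP sum in Pkd2-/- cells was 1005 per kb. Same-numbered libraries deviated together, at r above 0.1, in 2 of 12 pairs (r from -0.07 to 0.20, and from -0.20 to 0.11 for other pairs). For 3 of 12 libraries, all of them replicate 4, the same number correlated best in both other genotypes. These replicates had r = 0.09 (Wt and Pkd1-/-), 0.20 (Wt and Pkd2-/-) and 0.17 (Pkd1-/- and Pkd2-/-). Whether the numbers pair the dishes is therefore not settled. With the replicate block, 1170, 1790 and 2183 genes were called and no count of relatives changed. Rounded counts limit Was, Wipf3 and Wipf1, whose differences of 1 or 2 counts cannot be resolved.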
